A study of Rattus norvegicus with 33 samples.

Results

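The comparison asked whether the lasting mark of a neonatal paw inflammation on gene expression differed between the lumbar spinal dorsal horn (LDH) and the brain. It covered 18 of the 33 arrays of the series, those of adult rats injected on postnatal day 3 (P3): 6 arrays of left LDH, 6 of right LDH and 6 of brain. For every probe, the mean log ratio in brain was subtracted from the average of the left and right LDH means. The 2 pairs of near-identical arrays were averaged first. Left arrays 5 and 6 correlated at r = 0.969 and right arrays 1 and 2 at r = 0.806, against at most 0.417 for any other P3 pair. This left 10 cord samples (5 left, 5 right) and 6 brain samples.

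Per the labels, all pups were male rats given 0.25% carrageenan, an inflammatory seaweed polysaccharide, at 1 µl per g into the left hindpaw, and tissue was collected at postnatal day 60. Each array compared tissue of a treated animal, labelled with one Alexa dye, with the same tissue of a control animal, labelled with another. Which rats were inflamed a second time as adults, what the controls received, and whether each array holds a different rat are not stated in the sources used here. The p-values therefore rest on the spread among arrays, which may be technical. A value is thus a log ratio within one tissue, read as log2. The log base and the direction of the ratio are not stated. If treated tissue is the numerator, a positive value means more signal after carrageenan. A difference between cord and brain is a difference between 2 such ratios and says nothing about which tissue holds more of a transcript.

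The dorsal horn is the first central relay for signals from the paw. Glutamate released by sensory fibres excites its neurons through ionotropic receptors. Metabotropic glutamate and GABA receptors tune that transmission, and enkephalin, dynorphin and noradrenaline can restrain it. The brain receives the relayed signal and sends serotonergic and noradrenergic fibres back to the cord. The array was a custom panel for these systems and for neuropeptides, neurotrophins and cytokines. Of its 222 probes, 196 carried 1 gene symbol (158 symbols) and 26 were unnamed here. None of the neuron, astrocyte, microglia, oligodendrocyte, blood or reference genes looked for had a named probe, so the labelled tissues could not be checked against their markers.

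No probe differed between dorsal horn and brain at a limma adjusted p under 0.05 (0 of 222, 0% of probes). At an unadjusted p under 0.05 there were 10 probes (4.5%), 4 with a higher log ratio in cord (1.8%) and 6 with a lower one (2.7%), and the exact permutation test of 10 cord against 6 brain samples put 11 probes there. The difference was above zero for 108 probes (48.6%). Differences ran from -1.03 to 1.17 with a median of -0.0068. Their sizes had a median of 0.16, and 21 probes (9.46%) exceeded 0.5. There was no probe whose cord samples all lay on one side of its brain samples (0%). The median standard error was 0.23, and the 95% interval of the difference lay within 0.5 of zero for 85 probes and within 1 of zero for 158; for the remaining probes the interval reached beyond 1. Array medians ranged from 0 to 0.0855. The SD over probes within a sample ranged from 0.353 to 1.10 in cord (median 0.516) and from 0.388 to 1.17 in brain (median 0.593), with brain replicate 1 and left replicate 3 the widest. Single samples weighed on most values: of the 74 probes examined one by one, 58 had a difference more than 1.5 times smaller, or of the other sign, when some 1 sample was left out. None of the 8 named probes with an unadjusted p under 0.05 did. Those 8 were picked by p in these same samples, which favours such stability, so this is no support for them. The 74 also include differences near zero, such as -0.0059 for Sst, that any sample can shift.

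**Figure D1:**
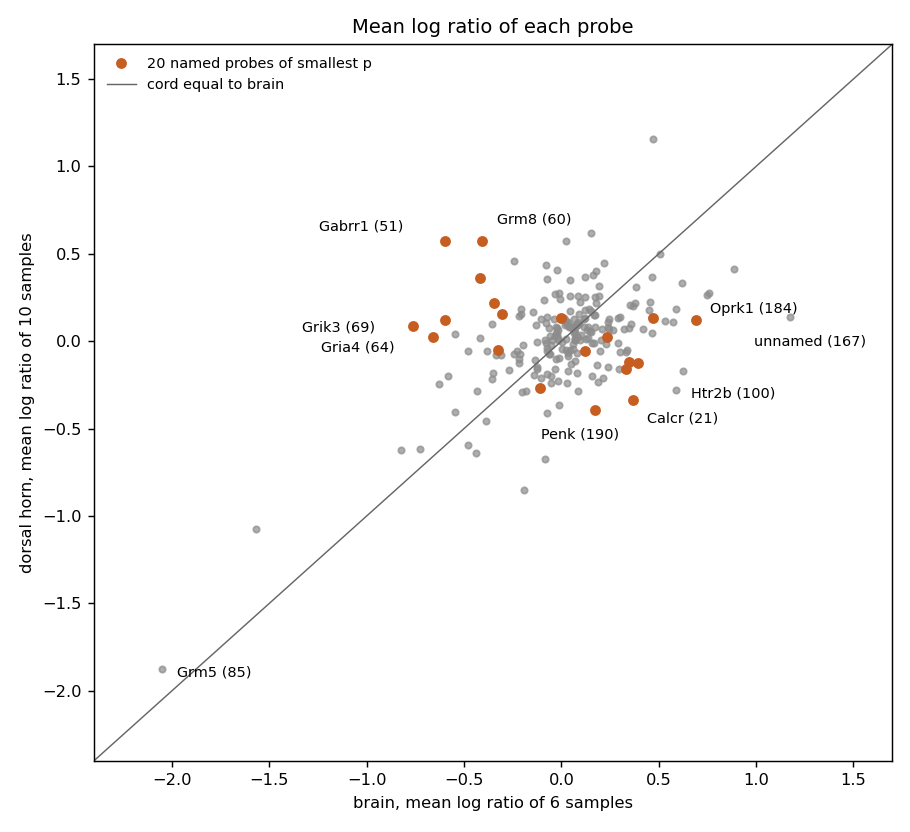
Mean log ratio of each of the 222 probes in dorsal horn (y axis, 10 samples) against brain (x axis, 6 samples), with the line of equality. The 20 named probes of smallest p (orange) lie to either side of the line at small means, and Grm5 lies near it at the lower left.

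Correlations between samples were low within and between tissues. Over probes, the median correlation was 0.0476 between left samples, 0.147 between right samples and 0.159 between brain samples, against 0.122 for left with brain and 0.178 for right with brain. The cord and brain means correlated at r = 0.51 (Spearman's rho = 0.33) across the 222 probes, which are not independent replicates. The point farthest out was Grm5, a metabotropic glutamate receptor coupled to calcium release, named here after its values were seen. Its brain log ratio was -2.05 ± 0.64 (SD, n = 6), with -2.07 ± 2.21 for left and -1.68 ± 0.83 for right cord (SD, n = 5 each), negative in 10 of 10 cord and 6 of 6 brain samples, with a cord minus brain difference of 0.17 ± 0.66 (SE). Without Grm5, r was 0.40 and rho 0.32.

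Glutamate receptors held the named probe of smallest p. Grik3 encodes a kainate receptor subunit. Its probe 69 read 0.90, -0.38, -0.042, 0.21 and 0.083 in the left samples and -0.12, 0.34, 0.15, -0.33 and 0.067 in the right samples. In brain it was negative in 6 of 6 samples, from -1.65 through a median of -0.59 to -0.22. The 10 cord samples thus spread around zero, while the brain samples lay below it and overlapped the lowest cord values. The difference was 0.85 ± 0.23 (SE), with a limma adjusted p of 0.359 and an exact permutation p of 0.00112 before adjustment. The other Grik3 probe, number 67 on another sequence entry, gave -0.24 ± 0.22, so the 2 probes had opposite signs. That sign rested on brain replicate 1, which read 1.58 on probe 67, with the next highest brain sample at 0.20. Without that sample the difference of probe 67 was 0.028.

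Grm8 encodes a metabotropic glutamate receptor that dampens transmitter release. Left cord read 0.26, 0.94, 0.072, 0.57 and 1.89, and right cord 1.18, -0.19, -0.34, 0.89 and 0.45. Brain ran from -1.56 through a median of -0.17 to 0.15. All 5 left samples, 3 of 5 right samples and 1 of 6 brain samples were positive, and the ranges overlapped. The difference was 0.98 ± 0.33 (limma adjusted p = 0.494, exact permutation p = 0.00974), and 0.75 without brain replicate 1, the lowest sample. Among the other metabotropic receptors, 5 of 7 probes had a positive difference, from -0.66 for Grm6, a receptor best known from retina, to 0.17 for Grm5. The Grm6 value became -0.35 without left replicate 3, which read -3.42. The 2 probes of Grm4, a presynaptic receptor, gave -0.18 and 0.17.

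The 22 probes of ionotropic glutamate receptors divided into 10 positive and 12 negative differences, with a median of -0.044 against -0.0068 for all probes; 0 passed, and 1, Grik3 probe 69, had an unadjusted p under 0.05. The AMPA receptor subunit Gria4 stood at 0.68 ± 0.38. Its brain values ran from -1.51 to 0.00, an exact zero, with no positive sample, but cord ran from -1.93 to 1.59. The NMDA receptor subunit Grin2b gave -0.42 ± 0.27, with brain replicate 1 at 1.28. The 4 probes of Grin1, the obligatory NMDA subunit, gave -0.42, -0.079, 0.074 and 0.25. The lowest of these had a brain SD of 1.61, with brain replicate 1 at -1.59 and replicate 6 at 3.36. Those of the kainate subunit Grik1 gave -0.42 and 0.43. The glutamate transporter list held 2 probes, 1 on each side of zero.

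**Figure D2:**
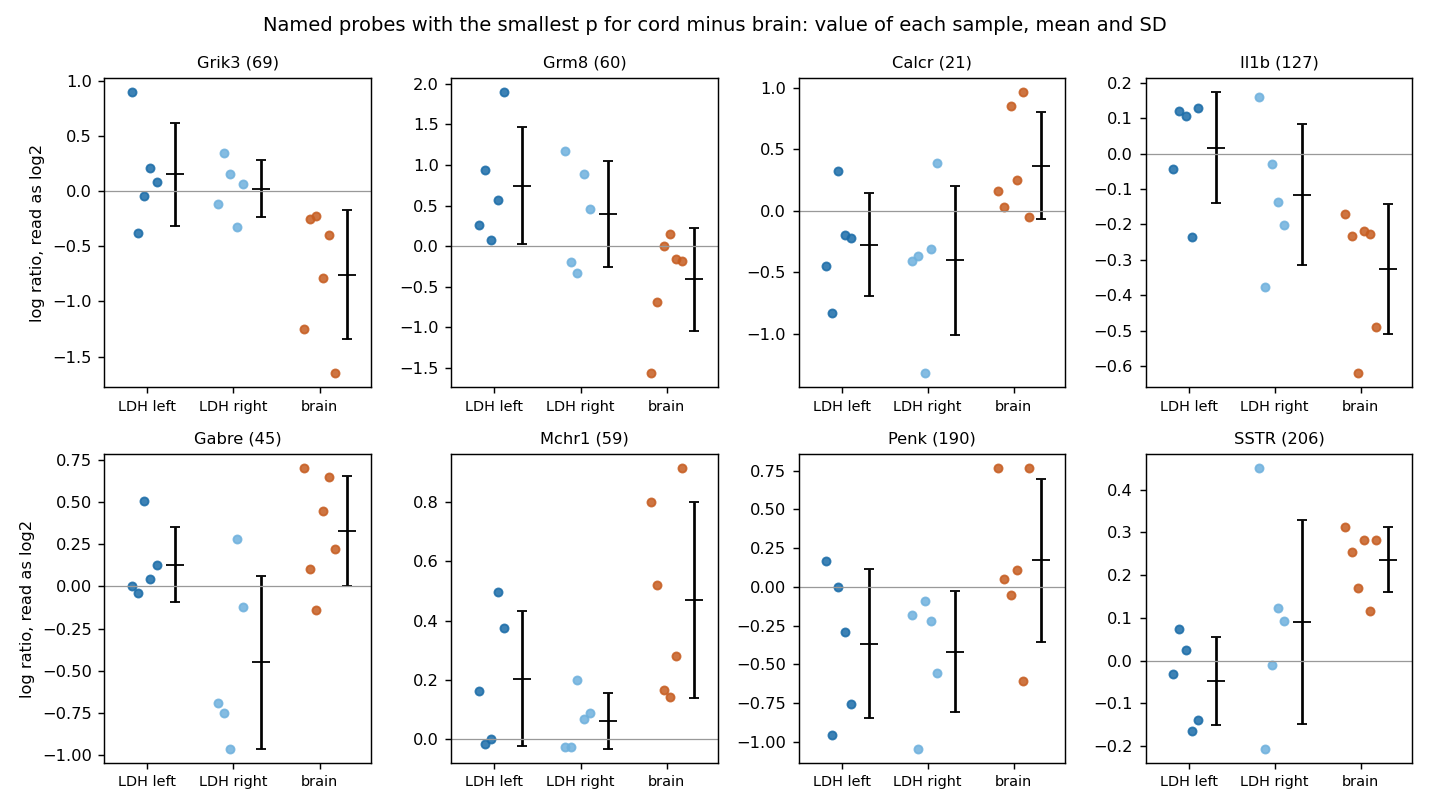
Log ratio of every sample (points) for the 8 named probes with an unadjusted p under 0.05, by tissue, with the mean and SD of each group beside it (n = 5 left, 5 right, 6 brain). In every panel the points of cord and brain overlap; Grik3 and Il1b have no brain point above zero and Mchr1 and SSTR none below it.

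The highest difference on the array belonged to a GABA receptor gene and rested on 1 sample. Gabrr1, a subunit of rho-type GABA receptors, had a difference of 1.17 ± 0.72 (limma adjusted p = 0.827). Brain replicate 1 read -4.99 while the other 5 brain samples ran from -0.18 to 0.71 and the cord from -0.41 to 2.07. Without that sample the difference was 0.29. Gabre encodes a less common GABA-A receptor subunit. Its probe 45 gave left values of 0.004, -0.038, 0.51, 0.046 and 0.13 and right values of -0.69, -0.75, -0.96, 0.28 and -0.12. It ran from -0.14 through 0.34 to 0.70 in brain. In the right cord 4 of 5 values were negative, 3 of them below the brain range, while the left samples all lay inside it. The difference from brain was -0.20 ± 0.22 for the left and -0.78 ± 0.22 for the right, while the test between sides gave 0.58 ± 0.23 with a limma adjusted p of 0.997. The second Gabre probe, on the same sequence entry, gave 0.29 ± 0.21 for the whole cord.

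Among all 14 GABA-A receptor probes, 5 differences were positive and 9 negative, with a median of -0.072, and 0 passed. Gabrq, another minor subunit, was negative in 9 of 10 cord and 5 of 6 brain samples, with a difference of -0.15 ± 0.094. The 8 probes of Gabbr1, which binds GABA in the GABA-B receptor, divided into 4 positive and 4 negative, from -0.59 (probe 31) to 0.25 (probe 35). The other 6 gave -0.15, -0.11, -0.069, 0.070, 0.14 and 0.19. Of the 4 synthesis and transport probes, Gad2, a GABA-producing enzyme, stood at 0.46 ± 0.28, with left replicate 1 at 1.52 and the other cord samples at most 0.32, and the transporter Slc6a13 at -0.27 ± 0.27. Gad2 was 0.26 without brain replicate 4 and Slc6a13 -0.0089 without brain replicate 2.

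Among the peptides, Penk encodes proenkephalin, the source of enkephalins that quiet dorsal horn neurons. Its probe 190 read 0.17, -0.95, 0.00, -0.29 and -0.76 on the left and -0.18, -1.04, -0.093, -0.22 and -0.56 on the right. Brain ran from -0.61 through 0.082 to 0.77. In cord, 8 of 10 samples were negative and 1 positive, while 4 of 6 brain samples were positive. The difference was -0.56 ± 0.24 (limma adjusted p = 0.745, exact permutation p = 0.0327). The other 2 Penk probes, on the same sequence entry, also had negative differences, of -0.79 ± 0.61 and -0.070 ± 0.095. The first of these rested on brain replicate 1 at 4.12 and left replicate 3 at -2.50: it was -0.095 without the former and 0.17 without both.

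The 10 opioid probes gave 3 positive and 7 negative differences with a median of -0.13, and 0 passed. Oprk1, the receptor for dynorphin, had -0.57 ± 0.33, positive in 5 of 6 brain and 5 of 10 cord samples. Oprd1, which binds enkephalin, had -0.18 ± 0.22, and the dynorphin precursor Pdyn -0.076 ± 0.085. Oprm1, the receptor of morphine, had 0.59 ± 0.41, but brain replicate 1 read -3.04 and the difference was 0.089 without it. The probes of Oprl1, the nociceptin receptor, gave 0.54 and -0.35. The first was 0.25 without left replicate 2, which read 3.35. The second was -0.035 without brain replicate 1, which read 1.97.

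Calcr encodes the calcitonin receptor. Its probe 21 gave left values of -0.45, -0.83, 0.33, -0.20 and -0.22 and right values of -0.41, -0.37, -1.32, -0.31 and 0.39. It ran from -0.052 through 0.20 to 0.96 in brain. There were 8 of 10 negative cord samples and 5 of 6 positive brain samples. The difference was -0.71 ± 0.24 (limma adjusted p = 0.494, exact permutation p = 0.0111), and the second Calcr probe, on another sequence entry, gave 0.30 ± 0.33. The 5 probes of the calcitonin gene-related peptide (CGRP) list had 2 positive and 3 negative differences with a median of -0.16, and Calca, which encodes CGRP, gave 0.073 ± 0.11. Crcp, a protein that couples the CGRP receptor to its signal and lies outside that list, gave -0.52 ± 0.32, and -0.18 without brain replicate 1 at 2.11.

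Mchr1, the receptor of melanin-concentrating hormone, gave left values of 0.16, -0.016, 0.00, 0.50 and 0.38 and right values of -0.026, -0.025, 0.20, 0.068 and 0.089. It ran from 0.14 through 0.40 to 0.92 in brain. All 6 brain samples and 6 of 10 cord samples were positive. The difference was -0.34 ± 0.13 (limma adjusted p = 0.590). The probe named SSTR, a somatostatin receptor entry, had the smallest spread in brain among the probes of this plot of values by sample, from 0.12 to 0.31 with a median of 0.27. Its left values were -0.032, 0.074, 0.026, -0.16 and -0.14, all below the brain range, and its right values 0.45, -0.21, -0.011, 0.12 and 0.094. The difference was -0.22 ± 0.092 (limma adjusted p = 0.751).

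Of the 6 tachykinin probes 2 were positive and 4 negative, and the 4 probes of Tac1, the substance P precursor, gave -0.48, -0.36, -0.022 and 0.32. In the neuropeptide Y family 3 of 5 were positive with a median of 0.22: the receptor Npy1r stood at 0.57 ± 0.31 and Npy2r at -0.47 ± 0.39 (-0.052 without brain replicate 4), and Npy itself at -0.064 ± 0.27. The 9 somatostatin probes gave 4 positive and 5 negative differences, none above 0.22 in size, and Sst itself -0.0059 ± 0.092. The cholecystokinin and neurotensin list held 4 and 4, from -0.32 for Cck to 0.11 for its receptor Cckbr. Without brain replicate 5 Cck was -0.082, and without brain replicate 1 Cckbr was -0.036. Among other neuropeptides 4 of 5 were positive, with Vipr2, a receptor of vasoactive intestinal peptide, at 0.43 ± 0.46 and -0.063 without brain replicate 1. In each of these lists 0 probes passed, and the 2 with an unadjusted p under 0.05 were SSTR and Mchr1.

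**Figure D3:**
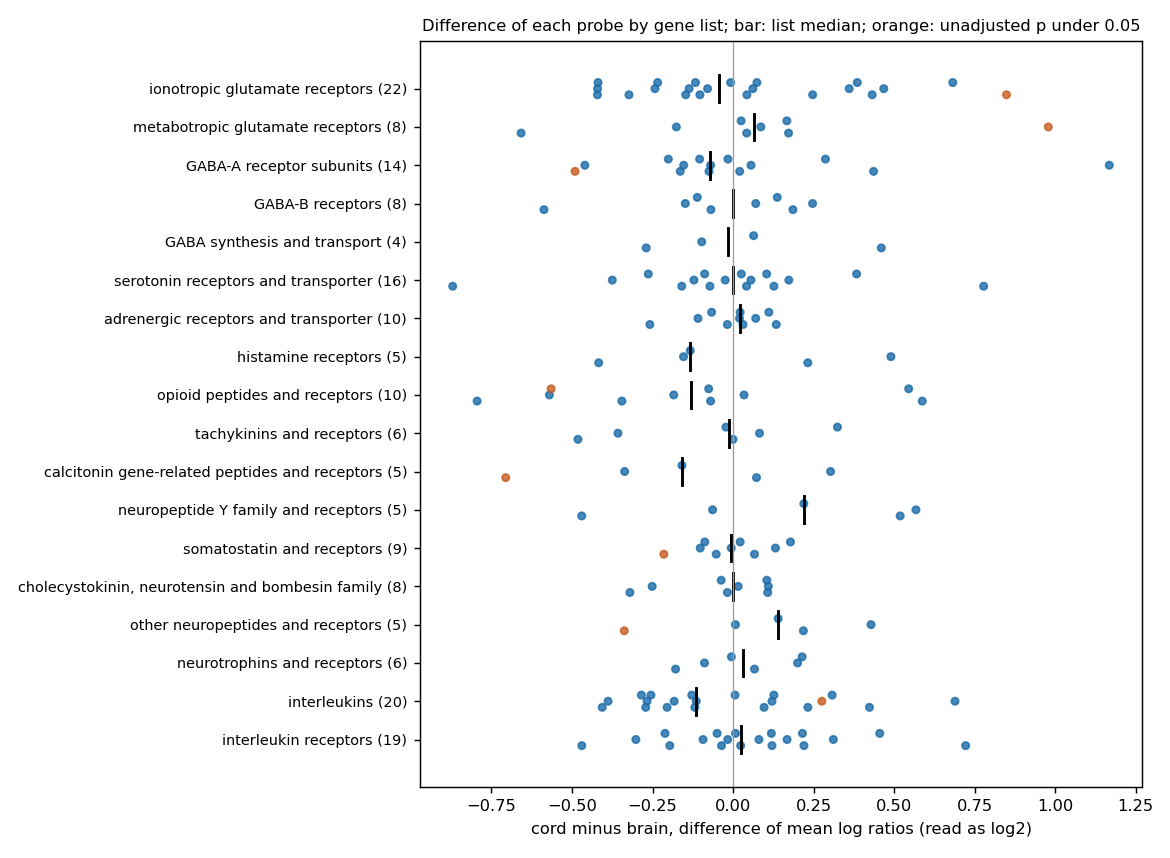
Cord minus brain difference of each probe (points) in the 18 gene lists with at least 3 probes, number of probes in brackets, with the list median as a bar. Every list has points on both sides of zero, and the list medians lie between -0.16 and 0.22.

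Serotonin and noradrenaline receptors are the targets of descending fibres in the cord. The 16 serotonin probes divided evenly, 8 positive and 8 negative, with a median of 0.00042, and 0 had an unadjusted p under 0.05. The widest were Htr7, an excitatory receptor, at 0.78 ± 0.43, and Htr2b, another, at -0.87 ± 0.55. Without brain replicate 1, which read -3.06 for Htr7 and -1.23 for Htr2b, these were 0.25 and -1.24. Brain replicate 4 read 3.48 for Htr2b, and without it the difference was -0.29. The 10 adrenergic probes lay in a narrow band from -0.26 for Adra1b to 0.13 for Adra2a, the receptor through which noradrenaline inhibits pain relay neurons. Adra2a probe 10 averaged 0.00 ± 0.076 in brain, 0.22 ± 0.16 on the left of the cord and 0.045 ± 0.10 on its right (SD). The other Adra2a probes, 15 and 16, on other sequence entries, gave differences of 0.11 and -0.067. The 5 histamine probes had 2 positive and 3 negative differences. The 2 probes of Hrh4, a receptor found mainly on blood and immune cells, gave -0.42 and 0.49 although both lie on the same sequence entry. The 2 probes of Adora2a, an adenosine receptor, gave -0.45 ± 0.30 and -0.39 ± 0.27, and -0.14 and -0.18 without brain replicate 1.

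Among cytokines, Il1b encodes interleukin-1 beta, a main driver of inflammation. Its values were -0.043, 0.12, 0.11, -0.23 and 0.13 on the left and 0.16, -0.38, -0.03, -0.14 and -0.20 on the right. All 6 brain samples were negative, from -0.62 through -0.23 to -0.17, against 6 of 10 cord samples. The difference was 0.28 ± 0.10 (limma adjusted p = 0.590, exact permutation p = 0.0124 before adjustment). Its 95% interval, from 0.055 to 0.50, was for this probe alone and not adjusted for the number of probes. Il6, another inflammatory cytokine, had a difference of 0.0059 ± 0.12.

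The 20 interleukin probes gave 9 positive and 11 negative differences with a median of -0.12; 0 passed, and Il1b alone had an unadjusted p under 0.05. The ends of the list were Il2, a T cell growth factor, at -0.41 ± 0.34 (-0.083 without brain replicate 2), and IL12B, a subunit of interleukin-12, at 0.69 ± 0.53 (0.41 without left replicate 4). The entry of IL12B carries a human gene symbol in the platform annotation, and whether its probe reports the rat transcript was not checked. Among the 19 interleukin receptor probes 11 were positive and 8 negative, with a median of 0.023 and 0 passing. Il2rg, a receptor subunit shared by several interleukins, stood at -0.47 ± 0.27. Il12rb2, a subunit of the interleukin-12 receptor, stood at 0.72 ± 0.45, and at 0.15 without brain replicate 1, which read -3.44.

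Of the 6 neurotrophin probes 3 were positive and 3 negative, with a median of 0.030 and 0 passing. They ran from -0.18 ± 0.12 for Ntf3, neurotrophin-3, to 0.21 ± 0.15 for Ntrk3, its receptor. Bdnf encodes brain-derived neurotrophic factor, which strengthens excitatory synapses in the dorsal horn. Its log ratio was negative in 9 of 10 cord and 6 of 6 brain samples, with a brain mean of -0.82 ± 0.65 (SD, n = 6) and cord means of -0.77 ± 0.66 (left) and -0.47 ± 0.58 (right, n = 5 each). Its cord minus brain difference was 0.20 ± 0.31. A list of 30 probes for 15 pain-related genes, drawn from the families above, had 12 positive and 18 negative differences with a median of -0.066, and 0 passed.

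Taking the sides of the cord apart, 0 of 222 probes passed for left cord against brain (0%) and 1 for right cord against brain (0.45%), at a limma adjusted p under 0.05. At an unadjusted p under 0.05 there were 9 probes on either side (4.05%). The probe that passed, number 209, has no gene name here. It read -0.03, 0.34, -0.37, 0.13 and -0.31 in left cord, 0.10, 1.52, 0.97, 0.86 and 1.37 in right cord, and from -0.56 through -0.30 to 0.24 in brain. All 5 right samples were positive, and 4 of them lay above every left and brain sample. Right cord minus brain was 1.20 ± 0.23 (limma adjusted p = 0.0271), while left cord minus brain was 0.19 ± 0.23 (limma adjusted p = 0.848). The test of left against right gave -1.01 ± 0.24 with a limma adjusted p of 0.197. The right-side call was lost when any of right replicates 3, 4 and 6 or brain replicates 1, 3, 4 and 6 was left out, with adjusted p up to 0.119. It was also lost with all 18 arrays unaveraged (adjusted p = 0.0785) and with arrays scaled to one spread (adjusted p = 0.0631). A block on replicate number ended the call too (limma adjusted p = 0.136). Without right replicate 1 the same probe passed for the whole cord, at 0.81 with a limma adjusted p of 0.0445, and for left against right, at -1.23 with a limma adjusted p of 0.00771.

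No probe passed for left against right cord (0%), and 5 had an unadjusted p under 0.05 (2.25%). The left and right differences from brain had one sign in 165 of the 222 probes (74.3%), and they share the brain samples. The other unnamed probe at the head of the ranking, number 167, had the lowest difference on the array, -1.03 ± 0.34 (limma adjusted p = 0.494). Its brain mean was 1.17 ± 1.06, its left mean -0.18 ± 0.29 and its right mean 0.46 ± 0.35 (SD). Both unnamed probes were singled out after their values were seen.

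**Figure D4:**
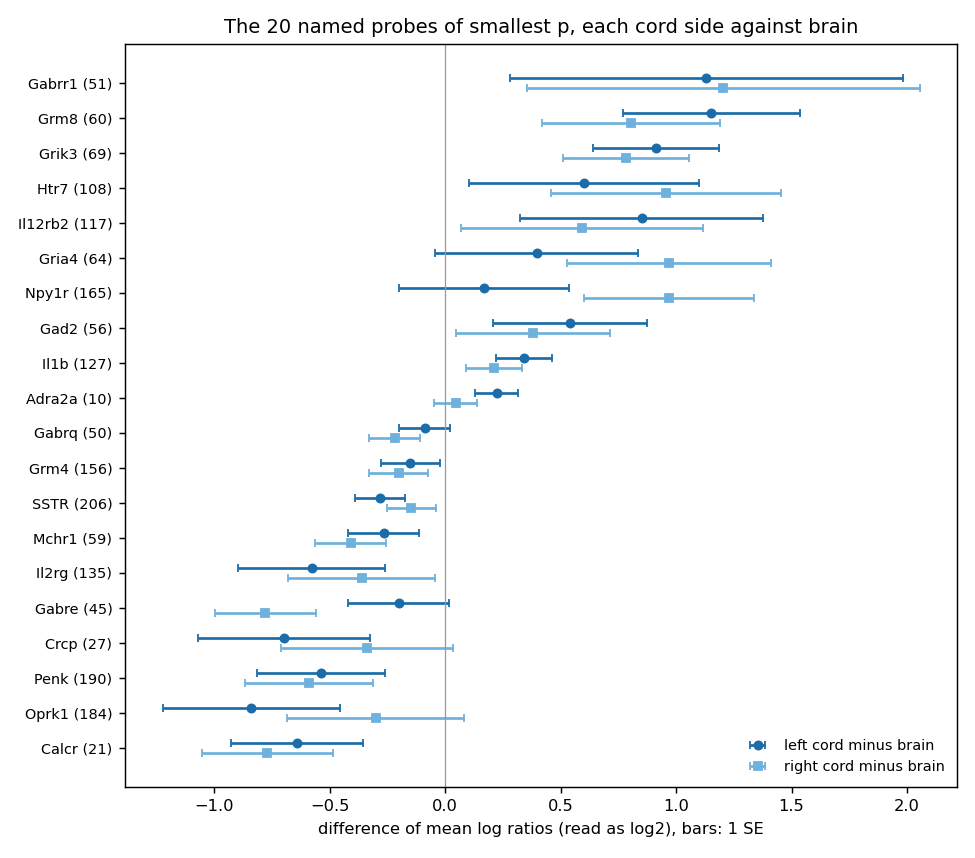
Difference of left cord (dark circles) and right cord (light squares) from brain for the 20 named probes of smallest p, probe number in brackets, with bars of 1 SE. Each pair of points has one sign, with Gabre at -0.20 for left cord and -0.78 for right cord.

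Several genes had more than 1 probe, which gives the difference more than once. Of 23 such symbols, 7 had all probes on one side of zero and 16 had probes on both. The 34 pairs of probes on the same sequence entry correlated over the 16 samples with a median r of 0.064, from -0.68 to 0.85. Of the 8 named probes with an unadjusted p under 0.05, Grik3, Calcr, Gabre and Penk had a second probe. With all samples, Penk was the one among them whose probes shared a sign. The opposite sign of Grik3 probe 67 rested on brain replicate 1. The 2 Oprl1 probes and the 2 Hrh4 probes stood on opposite sides of zero, and so did 4 and 4 of the 8 Gabbr1 probes.

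**Figure D5:**
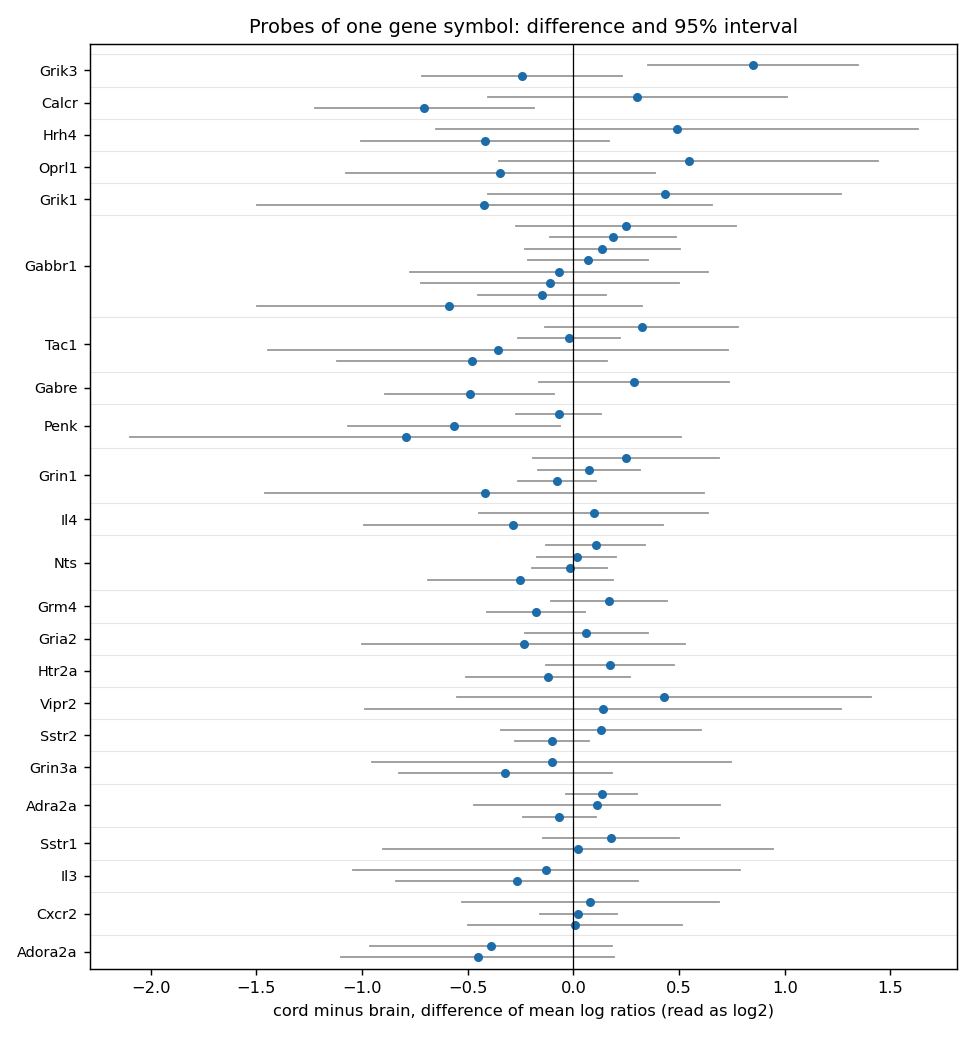
Cord minus brain difference with its 95% interval for every probe of the 23 symbols that have several probes, grouped by symbol. Grik3, from -0.24 to 0.85, and Calcr, from -0.71 to 0.30, have the widest gaps between their probes.

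The rats injected on postnatal day 12 were measured on another array with its own table, so their values are set beside the P3 values with no test (n = 5 in each group, mean ± SD). Grm8 averaged 0.47 ± 0.27 for left cord, 0.45 ± 0.33 for right cord and 0.45 ± 0.39 for brain. Il1b read 0.19 ± 0.65, 0.41 ± 0.13 and 0.19 ± 0.085 in the same order. The Grik3 entry of probe 69 read 0.25 ± 0.73, 2.05 ± 2.54 and 0.033 ± 0.51. The Calcr entry of probe 21 read 0.37 ± 0.37, 0.46 ± 0.58 and 0.43 ± 0.58. Mean cord and brain values of Grm8 and of this Calcr entry thus lay close together at P12. The 3 Penk probes there gave cord minus brain differences of 1.12, 0.44 and -1.36. The differences of the other leading probes, Adra2a left out, are given as P12 then P3. Signs were equal for Oprk1 (-0.62, -0.57), Mchr1 (-0.15, -0.34), Gria4 (0.54, 0.68), Il2rg (-0.83, -0.47) and Htr7 (0.41, 0.78). They were also equal for Gabrr1 (0.40, 1.17), Gabrq (-0.23, -0.15), Il12rb2 (0.071, 0.72) and the Grm4 entry of probe 156 (-0.082, -0.18). They were opposite for Npy1r (-0.81, 0.57), SSTR (0.29, -0.22), Crcp (0.14, -0.52) and Gad2 (-0.0155, 0.46). The 2 Gabre probes gave -0.046 and 0.31 at P12. Group SDs at P12 reached 1.41 for SSTR and 1.59 for Mchr1, so no likeness or reversal can be read from these values.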

How the data were processed

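Log ratios from 2-colour oligonucleotide arrays of left LDH, right LDH and brain of P3-injected rats were taken from the deposited table and read as log2. The authors deposited 1 value per probe and array. Exact zeros numbered 12 in left replicate 3, 10 in brain replicate 1 and 8 in right replicate 4, and at most 2 in any other array. The sample values of 0.00 given for Penk, Mchr1 and Gria4 are such zeros. Whether exact zeros are measured values is not stated. Scanner, background correction, normalization, log base and direction stay unknown (not given in the sources used here), and no dye swap is named in the labels. Per the labels' protocols, 5 µg of total RNA per sample was reverse transcribed with a capture-sequence labelling kit. Intensities were not analysed here, so signal over background is unknown, and the number of arrays limits the precision.

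Near-identical arrays (left 5 and 6, with 92.3% of values within 0.1 of each other; right 1 and 2, with 65.8%) were averaged. A model with 3 group means was fitted to 16 samples with limma 3.58.1 in R 4.3.3 (lmFit, eBayes), with Benjamini-Hochberg adjustment over 222 probes and a threshold of 0.05. It was run on simulated data with normally distributed noise and no outlying samples. That run does not show how well the model finds differences of the sizes seen here. The exact permutation test, two-sided, used 8008 regroupings and its p-values in the text are unadjusted; after adjustment the smallest was 0.25. Gene names came from the platform annotation, of which 187 probes had an Entrez identifier found in the RefSeq gene table. Genes named were the called probes, the 20 named probes of smallest p, the ends of each list of at least 3 probes, all probes of the pain panel, and probes of symbols with several probes. The comparison, lists and rules were chosen with earlier results of these data known. The samples were not treated as paired by replicate number, since the labels name no pairs. Of the 14 same-numbered pairs 4 correlated above 0.1, but 8 of 16 samples correlated best with their own number. Pairing was therefore not excluded, and the replicate block is given as an alternative. Alternatives covered probe averaging, array averaging, centring, scaling, robust regression, array weights, exact zeros, the replicate block and leaving out samples.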

Additional observations from a re-analysis of the deposited data

Results flagged for a closer look

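Among 222 groups of samples (74 named probes in left cord, right cord and brain), 34 had 1 sample set apart from the others by Dixon's criterion. Chance meets it in about 1 group in 20, but only for probes not picked by their values. Many of the 74 were so picked, as list ends or by small p, so that rate is no yardstick here. Brain replicate 1 accounted for 14 of them and left replicate 3 for 7. Their part in the differences was not tested beyond leaving them out.

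Brain replicate 1 read highest of its group for Adora2a, an adenosine receptor (1.87 on probe 3 and 1.41 on probe 5), Crcp (2.11), Grik3 probe 67 (1.58), Grin2b (1.28), Ntrk3 (0.50), Oprl1 probe 182 (1.97) and Penk probe 191 (4.12). It read lowest for Gabrr1 (-4.99), Htr7 (-3.06), Il12rb2 (-3.44), Oprm1 (-3.04), Sstr1 (-0.81) and Vipr2 (-2.53). Brain replicate 2 stood apart for Il2 (2.21) and Slc6a13 (1.65), and brain replicate 6 for Npy (-0.67).

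Left replicate 3 stood apart for Calca (0.60), Gabbr1 probe 30 (0.91), Grm6 (-3.42), Il2 (1.36), Il2rg (-1.27), Penk probe 191 (-2.50) and Sstr1 (0.65). Other left samples stood apart for Gad2 (1.52) and Ntf3 (-0.34) in replicate 1, Gria4 (-1.93) in replicate 2, Tac1 probe 212 (1.56) in replicate 4 and Npy (1.64) in replicate 5. On the right these were Grin1 probe 77 (0.33) in replicate 1, Tac1 probe 215 (1.13) in replicate 3, Oprl1 probe 182 (-1) in replicate 4, and Il2 (1.11) and Pdyn (-0.25) in replicate 5.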

How the results depend on the processing

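No probe passed for cord against brain, left cord against brain or left against right cord under any alternative with all samples, and the block on replicate number left 0 calls in all 4 comparisons (probe 209, right against brain, adjusted p = 0.136). The 14 pairs of samples with one number in different groups correlated at a median of 0.040, with 4 above 0.1. Of 16 samples, 8 correlated best with a sample of their own number, although most samples of the other groups carried other numbers. Pairing by number was therefore not excluded. For right cord against brain the 1 call (probe 209) became 0 with all 18 arrays unaveraged, with arrays scaled to one spread, with the replicate block and without the 2 samples of widest spread, a setting chosen after seeing the data. Leaving out 1 sample gave 0 to 1 calls for cord against brain, 0 for left, 0 to 2 for right (Gabre probe 45 was added without right replicate 5, at -0.96) and 0 to 1 for left against right (probe 209 without right replicate 1, at -1.23). The exact test was not run per side, since its smallest p, 0.0022, could pass after adjustment only if many probes reached it. Robust regression gave 0 calls for cord against brain, left against brain and left against right, and kept probe 209 for right against brain (1.29, adjusted p = 0.0105).

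Signs of cord minus brain turned as follows; none of these values passed. The cause was not tested, except that averaging replaces a probe by its symbol's mean. With probes of a symbol averaged: Grik1 probe 57 0.0052, Gabbr1 probes 29, 30, 32 and 35 -0.035, Hrh4 probe 94 0.036, Tac1 probe 212 -0.13, Calcr probe 22 -0.20, Grin1 probes 71 and 80 -0.045, Gabre probe 44 -0.10, Grik3 probe 67 0.30 and Oprl1 probe 182 0.10. With all 18 arrays: Il6 -0.016, Npy 0.053 and Sst 0.00333. With centring, Sst was 0.000108. With scaling: Gabbr1 probe 34 0.13, Npy 0.0028, Sst 0.022 and Tac1 probe 214 0.00186. With robust regression: Penk probe 191 0.030, Il6 -0.069 and Sst 0.019. With array weights: Grm6 0.045, Gabbr1 probes 31 to 34 0.021, -0.0040, 0.038 and 0.29, Npy 0.040, Sst 0.028, Tac1 probe 214 0.024 and Grik3 probe 67 0.057. With exact zeros missing, Gabbr1 probe 34 was 0.0081. Without the 2 samples of widest spread: Oprm1 -0.014, Penk probe 191 0.17, Sstr1 -0.023, Cckbr -0.034, Gabbr1 probes 33 and 34 0.0090 and 0.11, Npy 0.077, Sst 0.017, Tac1 probe 214 0.037, Grik3 probe 67 0.038 and Oprl1 probe 182 0.069.

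Leaving out 1 sample turned 14 probes: Bdnf (-0.011 to 0.33), Cckbr (-0.036 to 0.19), Gabbr1 probes 29 (-0.020 to 0.14), 33 (-0.29 to 0.030) and 34 (-0.26 to 0.097), Grik3 probe 67 (-0.35 to 0.028), Grin1 probes 71 (-0.0058 to 0.15) and 77 (-0.83 to 0.16), Grm5 (-0.064 to 0.63), Il6 (-0.11 to 0.067), Npy (-0.25 to 0.020), Sst (-0.050 to 0.042), Tac1 probe 214 (-0.11 to 0.028) and Vipr2 probe 221 (-0.063 to 0.63).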
